A study of Mus musculus with 12 samples.

Results

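Hnf4a, Foxa2, Onecut1, Prox1, Cebpa, Cebpb, Ppara, Nr1h4 and Nr1i3 encode transcription factors and nuclear receptors that set and keep the identity of the liver's hepatocytes. These 9 genes were taken by symbol from the table the authors deposited, which holds 24296 symbols. For each gene, the FPKM values of its transcripts were summed in each liver (FPKM counts fragments relative to transcript length in kilobases and to the size of the library). A symbol was tested when its sum had a mean of at least 0.5 FPKM over the 12 livers, which 13158 symbols did, all 9 of these genes among them.

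Total RNA of 12 livers of male C57/BL6N mice was sequenced on an Illumina NovaSeq, with 3 livers in each of 4 groups. The control mice carry the label WT, and the sources used here do not say what they were injected with. The model group was injected intraperitoneally with carbon tetrachloride (CCl4) in olive oil for 8 weeks, with 2 injections of 5 mL/kg each week, which induces liver fibrosis. The silibinin and phloridzin groups had the same CCl4 treatment and were given the drug from week 5, silibinin as the positive-control drug of the study and phloridzin, a plant flavonoid, at the dose the paper calls high. The age of the mice is not given. The libraries held 105.2 to 109.6 M fragments in the control group, 83.7 to 101.5 M in the model group, 106.7 to 110.9 M in the silibinin group and 98.5 to 104.7 M in the phloridzin group, as read from the steps between the FPKM values.

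HNF4A is a nuclear receptor that binds the promoters and enhancers of a large share of the genes that hepatocytes express, and it works in a network with the forkhead factor FOXA2, the homeodomain factors ONECUT1 (HNF6) and PROX1, and the C/EBP proteins. C/EBP alpha drives metabolic genes of the resting hepatocyte and holds back cell division, while C/EBP beta is induced in the acute phase response and in liver regeneration. PPARA, FXR (gene Nr1h4) and CAR (gene Nr1i3) are nuclear receptors that form heterodimers with RXR and respond to fatty acids, bile acids and foreign chemicals.

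The label liver was checked against marker genes of hepatocytes. All 6 (Alb, Ttr, Apoa1, Trf, Apob and Cps1) were in the table, none was at 0 in any liver, and Alb was the most abundant. Their summed level was 20800, 24600 and 20700 FPKM in control livers 1 to 3, 20400, 26100 and 28900 FPKM in the model livers, 30300, 38700 and 23200 FPKM in the silibinin livers and 26900, 34900 and 25800 FPKM in the phloridzin livers. With limma and Benjamini-Hochberg adjustment, 0 of these 6 genes passed an adjusted p of 0.05 in model against control, silibinin against model or phloridzin against model. At an unadjusted p under 0.05 the counts were 1, 0 and 1, and after median-ratio scaling Trf was called as lower in model against control (-1.75 against -1.28 as deposited). Alb dominates the sum. Without it the other 5 markers summed to 9870, 9020 and 9210 FPKM in the control livers and to 7220, 5490 and 5380 FPKM in the model livers, lower in 3 of 3, with 6520, 9310 and 9570 FPKM in the silibinin livers and 8010, 12000 and 9120 FPKM in the phloridzin livers. Kidney markers had a summed level of at most 0.0648 FPKM, and pancreas markers, with Cela1 the most abundant, lay between 4.88 and 11.7 FPKM.

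Over all 12 livers, Cebpa had the highest level of the 9 genes with a mean of 129 FPKM, which was higher than that of 97.6% of the symbols tested. Hnf4a followed with 112 FPKM and Cebpb with 76.4 FPKM, then Ppara with 38 FPKM and Nr1i3 with 19.7 FPKM. Nr1h4 and Foxa2 had means of 8.99 and 8.58 FPKM. Onecut1 and Prox1 had the lowest, 2.77 and 2.13 FPKM. The fragments behind a value ranged from 39172 to 60158 in a liver for Hnf4a and from 444 to 2653 for Prox1, so counting error is small beside the differences between livers, and the number of livers limits the precision.

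In the control group, the order by mean was Cebpa, Hnf4a, Cebpb, Ppara, Nr1i3, Foxa2, Nr1h4, Prox1 and Onecut1. The livers of Cebpa and Hnf4a, of Hnf4a and Cebpb, of Nr1i3 and Foxa2, and of Nr1h4 and Prox1 did not overlap, while those of the other neighbours in this order did. In the model group Cebpb came first, and its livers overlapped those of Hnf4a, which in turn overlapped those of Cebpa. The silibinin group had the 3 highest genes in the order of the control group, again without overlap among Cebpa, Hnf4a and Cebpb. In the phloridzin group the livers of Cebpa and Hnf4a overlapped, and Cebpb lay below both.

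**Figure D1:**
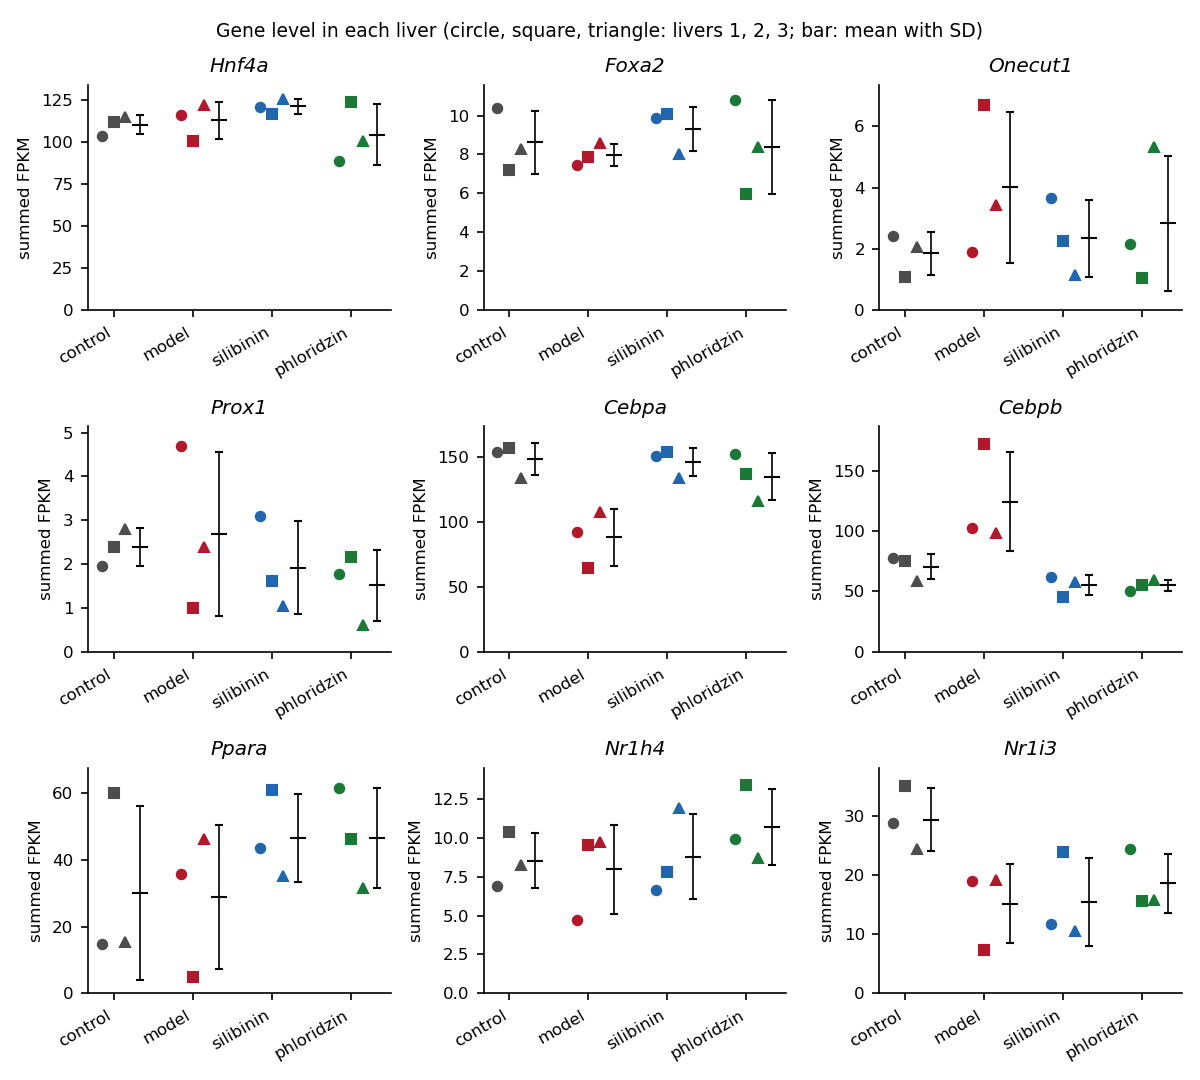
Summed FPKM (vertical axis) of each of the 9 genes in each of the 12 livers, by group, with the mean and SD of the 3 livers beside them. The 3 model livers of Cebpa lie between 64.6 and 108 FPKM, below every other liver, and those of Cebpb between 98.8 and 172 FPKM, above every other liver.

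Model against control asks what 8 weeks of CCl4 did to these genes. A gene is called here when its change in log2(FPKM + 1), tested by limma over all 13158 symbols, has a Benjamini-Hochberg adjusted p under 0.05. All log2 changes are of log2(FPKM + 1), so at low levels they are smaller in size than the log2 ratio of the FPKM means. These p-values measure the spread between livers of a group. Of the 9 genes, 2 were called, Cebpa as lower and Cebpb as higher, against 34.9% of all symbols tested. In this comparison 31.1% of symbols were called higher and 3.8% lower. After median-ratio scaling of the livers, 0 of the 9 were called higher and 3 lower by limma, namely Cebpa, Foxa2 and Nr1i3, the last 2 of which were not called as deposited. Of all 13158 symbols, 1663 were called higher and 1658 lower after this scaling.

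The balance of directions among all symbols depended on the scaling of the libraries. With FPKM as deposited, the median change of all symbols was 0.34 in model against control, -0.15 in silibinin against model, -0.11 in phloridzin against model, 0.16 in silibinin against control, 0.18 in phloridzin against control and 0.03 in phloridzin against silibinin. After median-ratio scaling of the livers the medians were -0.01, 0.01, 0.03, -0.03, -0.03 and 0. The share of calls that were higher moved from 89.1% to 50.1% in model against control, from 18.7% to 46.7% in silibinin against model and from 19.5% to 43% in phloridzin against model. In the comparisons with control it moved from 91.4% to 68.1% for silibinin and from 94% to 68.4% for phloridzin. Changes of single genes are therefore given as deposited, and for those of the 9 that were called also relative to the median of all symbols and after scaling.

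Hnf4a, on chr2:163506808-163572910 of GRCm38, plus strand, had nearly all of its sum (97%) in a single protein-coding transcript, Hnf4a-201. Its level was 104, 112 and 115 FPKM in control livers 1 to 3, 116, 101 and 122 FPKM in the model livers, 121, 117 and 126 FPKM in the silibinin livers and 88.7, 124 and 101 FPKM in the phloridzin livers. The model livers lie on both sides of the controls, and all 12 values fall between 88.7 and 126 FPKM. The change in model against control was 0.03 (95% interval -0.28 to 0.34) as deposited and -0.44 after median-ratio scaling, and also below 0 without control liver 1 (-0.01) or model liver 3 (-0.03), so it has no firm sign, and it was not called either way (limma, Benjamini-Hochberg adjusted p = 0.88 as deposited and 0.085 scaled, the lowest of all 24 alternatives).

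Foxa2, on chr2:148042877-148046969, minus strand, encodes a factor that opens chromatin for others. It had means of 8.63 ± 1.64, 7.97 ± 0.553, 9.34 ± 1.14 and 8.39 ± 2.42 FPKM (SD, n = 3 livers each) in the control, model, silibinin and phloridzin groups, and all groups overlapped. Its change in model against control was -0.09 as deposited, where 0 of the alternatives without a change of scaling called it. With median-ratio scaling the change was -0.51 and was called as lower (limma, Benjamini-Hochberg adjusted p = 0.045, with 0.045 to 0.92 over the 24 alternatives). Its second coding transcript, Foxa2-202, was at 3.05, 0.867 and 3.87 FPKM in the model livers and at most 1.39 FPKM in the control livers, and was called as higher only without model liver 2, where the other 2 model livers remain.

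Onecut1, on chr9:74861921-74891781, plus strand, and Prox1, on chr1:190118035-190170714, minus strand, act early in liver development and remain expressed in adult hepatocytes. Onecut1 was at 2.42, 1.08 and 2.08 FPKM in the control livers and at 1.89, 6.71 and 3.44 FPKM in the model livers, and Prox1 at 1.95, 2.4 and 2.81 FPKM and at 4.7, 0.997 and 2.39 FPKM. Both genes spread more within the model group than between the group means. Their changes were 0.72 (95% interval -0.3 to 1.75) and 0.01 (95% interval -0.86 to 0.87), and neither was called in any of the 24 alternatives. Intervals of this width would hold a change of more than 1.5-fold in either direction for Prox1, so its level is known only roughly.

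Cebpa lies on chr7:35119293-35121928, plus strand, and has 1 transcript with nearly all of its sum, Cebpa-201. As 1 of 2 members called in model against control, it is shown with the 250 bases before its start as given by RefSeq for GRCm38.p6 (chr7:35119043-35119292, plus strand, 66.4% G and C against a median of 52.4% over 32851 such windows). Capitals mark a TATA box, TATAAA, at bases 30 to 25 before the start, a motif that 12.4% of the windows hold on either strand. This start is the first base of the gene, and Cebpa-201 begins further on, at 35119303.
Cebpa: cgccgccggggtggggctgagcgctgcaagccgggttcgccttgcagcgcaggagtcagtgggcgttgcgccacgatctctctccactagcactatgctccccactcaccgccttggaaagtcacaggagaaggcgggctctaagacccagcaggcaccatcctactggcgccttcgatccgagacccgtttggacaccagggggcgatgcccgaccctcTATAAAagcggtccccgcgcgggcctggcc

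Cebpa was at 154, 157 and 134 FPKM in control livers 1 to 3, at 92, 64.6 and 108 FPKM in the model livers, at 151, 154 and 134 FPKM in the silibinin livers and at 152, 137 and 116 FPKM in the phloridzin livers. Every model liver was below every liver of the other 3 groups, with model liver 2 the lowest. The means were 148 ± 12.1, 88.2 ± 22, 147 ± 10.6 and 135 ± 18.3 FPKM (SD, n = 3 livers each). Cebpa fell by 0.77 on the log2 scale in model against control (standard error 0.19, lower in 3 of 3 livers, limma, Benjamini-Hochberg adjusted p = 0.01), which is -1.11 relative to the median of all symbols. Over the 24 alternatives the change ran from -1.24 to -0.56 with limma and Benjamini-Hochberg adjusted p from 0.00079 to 0.036, and the call was lost only where a fold change above 2 was also required. In bulk tissue, fewer hepatocytes and less Cebpa RNA per hepatocyte cannot be told apart.

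Cebpb lies on chr2:167688915-167690418, plus strand, and has 1 transcript, Cebpb-201. It is the other member called in model against control, and the 250 bases before its start (RefSeq, GRCm38.p6, chr2:167688665-167688914, plus strand) are 81.6% G and C. Capitals mark 5 matches of the GC box GGGCGG, the first 2 of which overlap, and 3 matches of the core of the cAMP response element, TGACG, the first of them on the other strand and so read as CGTCA. Of all 32851 windows, 32.7% hold GGGCGG and 17.8% hold TGACG on either strand.
Cebpb: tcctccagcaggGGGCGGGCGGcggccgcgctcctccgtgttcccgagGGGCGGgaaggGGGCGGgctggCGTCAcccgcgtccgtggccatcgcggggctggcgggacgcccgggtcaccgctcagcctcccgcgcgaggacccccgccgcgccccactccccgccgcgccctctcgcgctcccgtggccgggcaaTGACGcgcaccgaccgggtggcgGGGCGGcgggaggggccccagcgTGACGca

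Cebpb was at 78.1, 74.9 and 58.5 FPKM in control livers 1 to 3, at 103, 172 and 98.8 FPKM in the model livers, at 62.2, 45.8 and 57.5 FPKM in the silibinin livers and at 50.3, 55.7 and 59.3 FPKM in the phloridzin livers. Every model liver was above every liver of the other groups, and model liver 2, the lowest for Cebpa, was the highest for Cebpb. The means were 70.5 ± 10.5, 125 ± 41.3, 55.1 ± 8.45 and 55.1 ± 4.55 FPKM (SD, n = 3 livers each). Cebpb rose by 0.78 on the log2 scale in model against control (standard error 0.22, higher in 3 of 3 livers, limma, Benjamini-Hochberg adjusted p = 0.019), which is 0.44 relative to the median of all symbols.

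This rise of Cebpb was the less firm of the 2 calls. After median-ratio scaling it was 0.31 and no longer called (limma, Benjamini-Hochberg adjusted p = 0.38, with 0.018 to 0.38 over the 24 alternatives), and the call was also lost in the scaled fit of fragments (0.35), without control liver 3 (0.65), without model liver 2 (0.52), in a fit of only these 2 groups and with a fold change above 2. It stayed above 0 in all 24 alternatives.

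The ratio of Cebpa to Cebpb within a liver does not depend on the scaling between livers. It was 1.97, 2.09 and 2.29 in the control livers, 0.892, 0.374 and 1.09 in the model livers, 2.43, 3.37 and 2.34 in the silibinin livers and 3.02, 2.46 and 1.95 in the phloridzin livers. All 3 model livers lie below all 9 others. The ratio of Cebpa to Hnf4a was also lowest in the model livers, with 0.641 to 0.887 in the model livers against 1.17 to 1.47 in control, 1.07 to 1.32 with silibinin and 1.11 to 1.71 with phloridzin. The ratio of Cebpb to Hnf4a was 0.811 to 1.71 in the model livers against 0.51 to 0.749 in control, 0.391 to 0.516 with silibinin and 0.451 to 0.588 with phloridzin. These ratios were chosen after the values were seen and were not tested. A ratio shows that 2 genes changed unequally and not which of them changed.

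**Figure D2:**
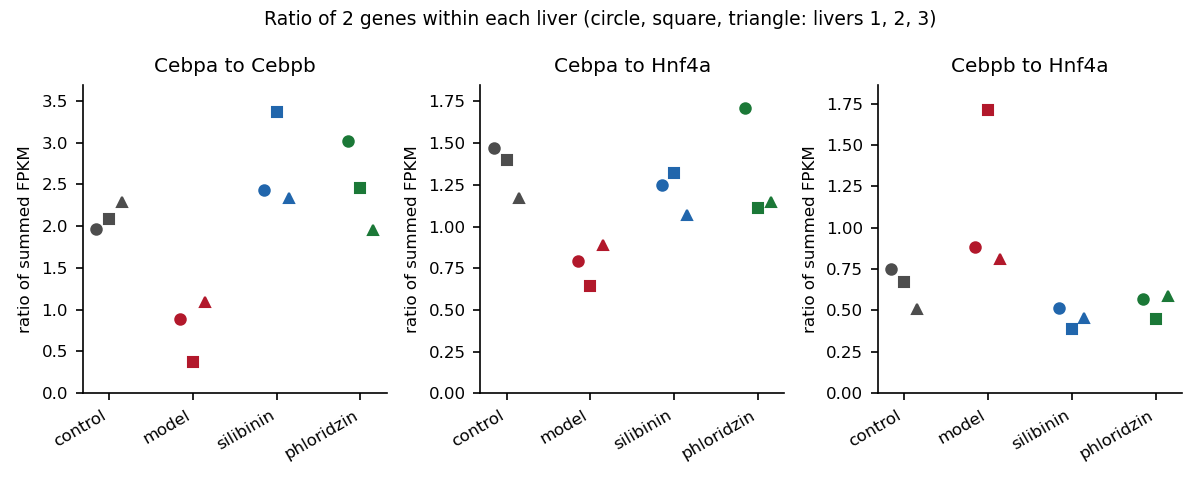
Ratio of the summed FPKM of 2 genes within each liver (vertical axis), by group, with 1 point a liver. The 3 model livers lie between 0.374 and 1.09 for Cebpa to Cebpb and between 0.641 and 0.887 for Cebpa to Hnf4a, apart from the livers of the 3 other groups.

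Nr1i3, which encodes CAR, lies on chr1:171213970-171220701, plus strand. It is shown with its promoter because its model livers, too, were apart from the controls. The 250 bases before its start (RefSeq, GRCm38.p6, chr1:171213720-171213969, plus strand, 53.2% G and C) hold 1 match of the forkhead motif TGTTTNC, in capitals, at bases 215 to 209 before the start, as 17.8% of all windows do on either strand.
Nr1i3: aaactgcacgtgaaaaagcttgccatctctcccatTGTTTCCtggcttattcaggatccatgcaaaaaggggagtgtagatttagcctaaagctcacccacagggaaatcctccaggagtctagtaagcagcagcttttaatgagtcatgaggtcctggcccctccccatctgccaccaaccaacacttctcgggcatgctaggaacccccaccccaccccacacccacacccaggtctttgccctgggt

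Nr1i3 was at 28.9, 35.1 and 24.4 FPKM in control livers 1 to 3, at 19, 7.41 and 19.2 FPKM in the model livers, at 11.8, 24 and 10.6 FPKM in the silibinin livers and at 24.4, 15.6 and 15.9 FPKM in the phloridzin livers. All 9 livers of mice given CCl4 were at or below the lowest control, and phloridzin liver 1 came to within rounding of it. The group means were 29.4 ± 5.37, 15.2 ± 6.75, 15.5 ± 7.41 and 18.6 ± 4.95 FPKM (SD, n = 3 livers each). The change in model against control was -1 (standard error 0.38, lower in 3 of 3 livers) and narrowly missed the threshold (limma, Benjamini-Hochberg adjusted p = 0.061), with -1.34 relative to the median of all symbols. With median-ratio scaling it was -1.45 and called, as it was in the scaled fit of fragments (-1.49) and without silibinin liver 2 (-1), while without model liver 2 it was -0.58 and not called, with limma and Benjamini-Hochberg adjusted p from 0.012 to 0.28 over the 24 alternatives.

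Of the transcripts of Nr1i3, 1 was called in model against control, Nr1i3-206, which is annotated as a retained intron. It was at 4.99, 5.06 and 4.85 FPKM in the control livers and at 1.37, 1.3 and 1.94 FPKM in the model livers, a change of -1.24 (standard error 0.20, lower in 3 of 3 livers, limma, Benjamini-Hochberg adjusted p = 0.0042 over 26908 transcripts). The call held in all 20 alternatives that give a value for transcripts. In the silibinin livers it was at 2.06, 2.21 and 1.01 FPKM and in the phloridzin livers at 3.09, 2.89 and 2.25 FPKM, and it was also called as lower in silibinin against control (-1.14, standard error 0.20, lower in 3 of 3 livers, limma, Benjamini-Hochberg adjusted p = 0.049), a comparison in which transcripts were not fitted under the alternatives. The control livers lie close together here, while the most abundant coding transcript, Nr1i3-208, ran from 6.13 to 15.5 FPKM in the same 3 livers. The exons of Nr1i3 share 3304 of 4414 bases with those of Tomm40l on the opposite strand, which had means of 2.5, 3.67, 3.43 and 3.24 FPKM in the 4 groups, and the assignment of fragments between them was not tested.

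Ppara, on chr15:85734983-85802819, plus strand, encodes the receptor that turns on fatty acid oxidation in fasting. It was at 14.7, 60.1 and 15.5 FPKM in control livers 1 to 3, at 35.9, 4.74 and 46.2 FPKM in the model livers, at 43.6, 61.1 and 35.1 FPKM in the silibinin livers and at 61.6, 46.2 and 31.7 FPKM in the phloridzin livers. The control and model livers spread widely, and model liver 2 is the lowest of all 12. The changes were -0.22 (95% interval -1.88 to 1.44) in model against control, 1.11 (95% interval -0.55 to 2.77) in silibinin against model and 1.09 (95% interval -0.56 to 2.75) in phloridzin against model, and 0 of these 3 were called by limma, 0 of them at an unadjusted p under 0.05. Without model liver 2 the change in silibinin against model was 0.15 and in phloridzin against model 0.14, so most of both differences came from this liver. In model against control the change of Ppara was 0.73 without model liver 2 and 0.42 without control liver 2, against -0.22 with all livers. With the highest transcript in place of the sum, the change in phloridzin against model was -1.55 and that in phloridzin against silibinin -2.13, also not called, so the direction for phloridzin rests on the sum.

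The transcripts behind the Ppara sum differed from liver to liver. Ppara-201 held from 0.0185 to 44.4 FPKM and was under 0.05 FPKM in model liver 2 and in phloridzin livers 2 and 3. Ppara-203 was at 33.7 and 14 FPKM in phloridzin livers 2 and 3 and at most 2.77 FPKM in the other 10 livers. The split of fragments between the transcripts of a gene is an estimate of the assembly software, and how far it holds for Ppara was not tested.

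**Figure D3:**
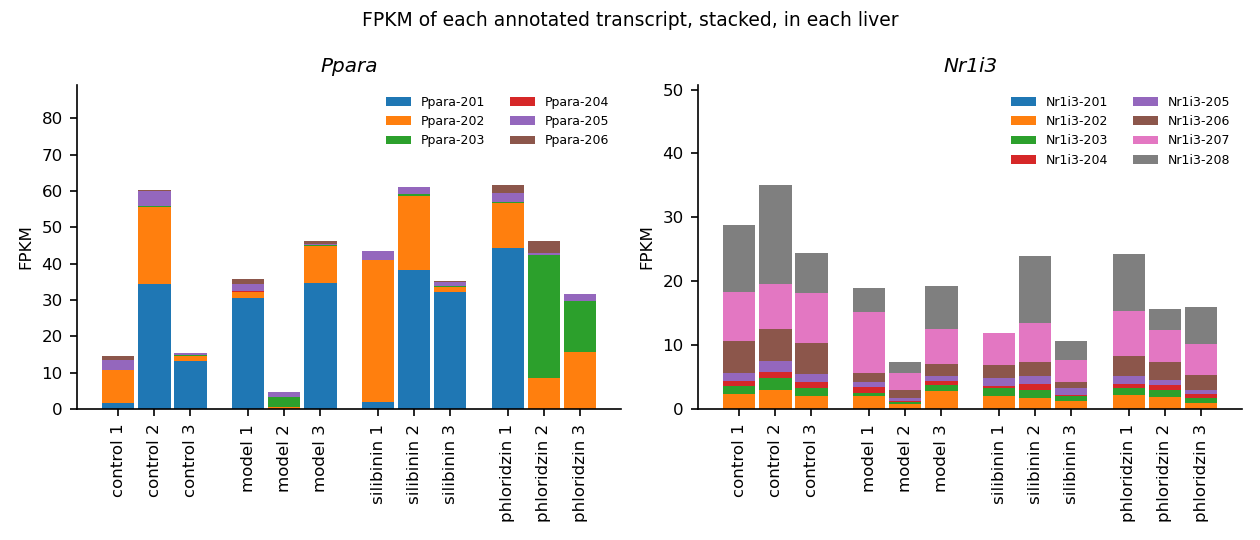
FPKM of each annotated transcript (vertical axis, stacked) of Ppara and Nr1i3 in each of the 12 livers. For Ppara the transcript with the largest share changes from liver to liver within a group, and for Nr1i3 the transcript Nr1i3-206 is between 4.85 and 5.06 FPKM in the 3 control livers and between 1.3 and 1.94 FPKM in the 3 model livers.

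Nr1h4, on chr10:89454234-89533585, minus strand, encodes the bile acid receptor FXR. It ranged from 4.69 FPKM in model liver 1 to 13.4 FPKM in phloridzin liver 2, with means of 8.52 ± 1.75, 7.99 ± 2.86, 8.78 ± 2.74 and 10.7 ± 2.43 FPKM (SD, n = 3 livers each) in the control, model, silibinin and phloridzin groups. All groups overlapped, 95.8% of the sum was in Nr1h4-203, and the gene was not called in any comparison or alternative.

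At the level of transcripts, 23 of the 31 transcripts of the 9 genes passed the filter. In model against control 3 of them were called, Cebpa-201, Cebpb-201 and Nr1i3-206, against 13.9% of all 26908 transcripts tested. Cebpb-201 was the only one called in silibinin against model, where 4.57% of transcripts were called, and in phloridzin against model, where 4.27% were. The changes of Cebpa-201 and Cebpb-201 are those of their genes, but their adjusted p in model against control were higher (limma, Benjamini-Hochberg, 0.029 for -0.77 and 0.048 for 0.78, each in 3 of 3 livers). Leaving out 1 liver took away the call of Cebpa-201 in 5 of 12 cases and that of Cebpb-201 in 11 of 12 in model against control. Against model, Cebpb-201 lost its call in 7 of 20 alternatives with each drug, median-ratio scaling and 4 with 1 liver left out among them, and Cebpa-201 gained one with that scaling for both drugs, so that the count of 1 does not stand for the same transcript.

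Silibinin against model asks what the positive-control drug did to the genes under continued CCl4. Of the 9 genes, 2 were called, against 14.1% of all symbols, Cebpa as higher (2.62% of symbols were called higher) and Cebpb as lower (11.4% lower). Cebpa rose by 0.76 (standard error 0.19, higher in 3 of 3 livers, limma, Benjamini-Hochberg adjusted p = 0.023), 0.91 relative to the median of all symbols and 0.97 after scaling. Its call was lost without model liver 2 (0.55), without silibinin liver 1 (0.73) and without silibinin liver 2 (0.72), in a fit of only these 2 groups and with a fold change above 2, with limma and Benjamini-Hochberg adjusted p from 0.0047 to 0.073 over the alternatives.

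Cebpb fell by 1.13 on the log2 scale in silibinin against model (standard error 0.22, lower in 3 of 3 livers, limma, Benjamini-Hochberg adjusted p = 0.0078), with -0.97 relative to the median of all symbols and -0.91 after scaling. It was called in all 24 alternatives, with changes from -1.27 to -0.87. The 7 other genes were not called in any alternative of this comparison, and their changes as deposited ran from -0.53 for Onecut1 to 1.11 for Ppara.

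Phloridzin against model asks the same of phloridzin, and shares its model livers with the comparison for silibinin. Of the 9 genes, 1 was called, against 12.9% of all symbols, namely Cebpb as lower, where 10.4% of symbols were called lower and 2.5% higher. Cebpb fell by 1.12 (standard error 0.22, lower in 3 of 3 livers, limma, Benjamini-Hochberg adjusted p = 0.0085), with -1.01 relative to the median of all symbols and -0.94 after scaling, and the call was lost only in a fit of these 2 groups alone (limma, Benjamini-Hochberg adjusted p = 0.056, with 0.008 to 0.056 over the 24 alternatives). Cebpa was higher in 3 of 3 livers by 0.63 (standard error 0.19) and just missed the threshold as deposited (limma, Benjamini-Hochberg adjusted p = 0.052). It was called with median-ratio scaling (0.81), in the scaled fit of fragments (0.80), with a filter at a mean of 1 FPKM (0.63) and without model liver 3 (0.79), with limma and Benjamini-Hochberg adjusted p from 0.012 to 0.17 over the alternatives.

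Both drug groups were also compared with the control group, whose livers these comparisons share. Here 0 of the 9 genes were called by limma in either drug group, where 5.02% of symbols were called for silibinin and 7.99% for phloridzin. At an unadjusted p under 0.05, Nr1i3 alone passed for silibinin and 0 genes passed for phloridzin. The change of Nr1i3 was -0.96 (95% interval -1.8 to -0.12) with silibinin and -0.65 (95% interval -1.48 to 0.19) with phloridzin. For Cebpa these changes were -0.01 (95% interval -0.43 to 0.4) and -0.14 (95% interval -0.56 to 0.28), and for Cebpb -0.35 (95% interval -0.83 to 0.13) and -0.34 (95% interval -0.82 to 0.14). Hnf4a was higher in all 3 silibinin livers than in all 3 control livers, by 0.14 as deposited and -0.12 after scaling, and was not called. For Hnf4a-201 alone the livers of these groups overlapped (118, 114 and 111 FPKM against 102, 109 and 113 FPKM), and Hnf4a-202 was at 14 FPKM in silibinin liver 3 and at most 1.43 FPKM in the other 11 livers.

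Phloridzin against silibinin compares the drugs directly. In this comparison 0 of the 9 genes were called by limma, and 0 at an unadjusted p under 0.05, where 0.0228% of all symbols were called, which is 3 symbols. The difference of Cebpb was 0.01 (95% interval -0.48 to 0.49) and that of Cebpa -0.13 (95% interval -0.54 to 0.29). For the Ppara sum the interval, -1.67 to 1.64, is too wide to limit a difference between the drugs to less than 3-fold. Cebpa was called against the model for one drug and not for the other, and this direct comparison does not show the drugs to differ.

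**Figure D4:**
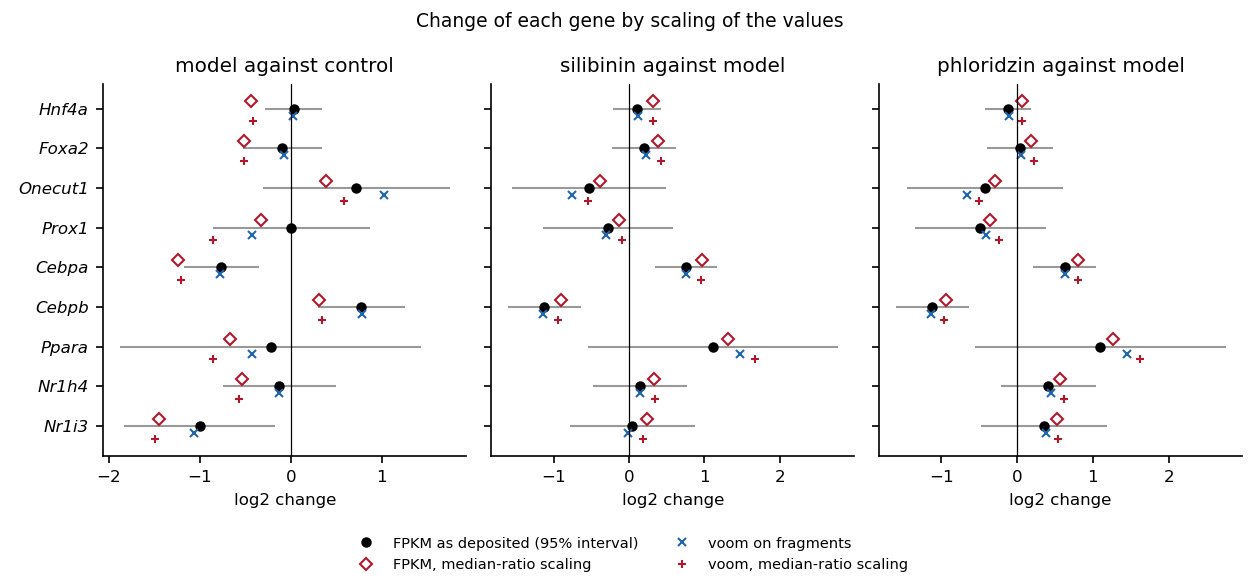
Change in log2 level (horizontal axis) of each of the 9 genes in 3 comparisons, as deposited with its 95% interval, after median-ratio scaling, and from fits of fragments by voom without and with that scaling. In model against control, scaling moves all 9 genes to the left, Cebpb from 0.78 to 0.31 and Cebpa from -0.77 to -1.24, and Hnf4a and Prox1 then lie on the other side of 0. In the other comparisons the signs of Cebpa and Cebpb are the same in all 4 fits.

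The 3 profiles nearest to that of Cebpa over the 12 livers, by root mean square distance of log2(FPKM + 1) centred on the control mean, were those of Tst (0.139), Acad11 (0.146) and Elmod3 (0.146) among 11610 symbols compared. Tst had means of 117, 73.3, 121 and 114 FPKM in the control, model, silibinin and phloridzin groups, next to 148, 88.2, 147 and 135 FPKM for Cebpa. For Cebpb the nearest were Edem1 (0.218), Mrps18b (0.221) and Hspb8 (0.222). Hspb8 had means of 82.9, 132, 56.7 and 63.9 FPKM in the 4 groups.

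Markers of other cells were read beside these genes. Of 7 markers of stellate cells and myofibroblasts, all in the table and none at 0 in any liver, 5 were called as higher, and 3 after scaling, against 31.1% of all symbols called higher as deposited. Their summed level, with Col3a1 the most abundant, was 31.7, 23.4 and 27.5 FPKM in the control livers, 160, 132 and 169 FPKM in the model livers, 162, 155 and 74.1 FPKM in the silibinin livers and 216, 86.9 and 70.2 FPKM in the phloridzin livers. The sums of the 3 livers differed more within each drug group than those of Cebpa and Cebpb did. Col1a1 rose by 4.35 in model against control (standard error 0.57, higher in 3 of 3 livers, limma, Benjamini-Hochberg adjusted p = 0.00042). Against model, limma called 0 of the 7 with silibinin, with 1 at an unadjusted p under 0.05. With phloridzin 1 was called as lower (14.3% against 12.9% of all symbols), and 1 after scaling. It was Lrat (-0.83, standard error 0.18, limma, Benjamini-Hochberg adjusted p = 0.015). Lrat lost this call without model liver 3 or phloridzin liver 2 and in a fit of only these 2 groups.

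For Kupffer cells and macrophages, 2 of 6 markers were called as higher (33.3% against 31.1% of all symbols), and 1 after scaling, and the sum, with Lyz2 the most abundant, was 123, 223 and 181 FPKM in the control livers, 319, 514 and 428 FPKM in the model livers, 383, 498 and 358 FPKM in the silibinin livers and 611, 580 and 319 FPKM in the phloridzin livers. Without Lyz2 the control and model livers overlapped, with sums of 92.2, 156 and 116 FPKM and of 140, 234 and 173 FPKM. In the silibinin livers these sums were 142, 194 and 162 FPKM, and in the phloridzin livers 290, 252 and 165 FPKM. Adgre1 (0.95) lost its call after scaling and without control liver 1 or 3 or model liver 2 or 3, and Lyz2 (2.16) kept it in all 24 alternatives. For cholangiocytes, 2 of 3 tested markers of 5 were called as higher, and 1 after scaling, with Spp1 the most abundant and sums of 11.3 to 16.7 FPKM in control, 46.2 to 55.6 FPKM in model, 24.1 to 48.7 FPKM in silibinin and 25.7 to 52.7 FPKM in phloridzin livers. Without Spp1 these sums were 1.76 to 2.98 FPKM in control and 3.93 to 5.69 FPKM in model livers. They were then 3.76 to 7.03 FPKM with silibinin and 4.74 to 7.38 FPKM with phloridzin. Krt19 (0.73) lost its call after scaling and without control liver 1 or 2 or model liver 2 or 3, and Spp1 (1.94) kept it in all 24. Neutrophil markers, led by S100a8, had sums of 7.04 to 20.2 FPKM in control, 24.6 to 64.2 FPKM in model, 9.72 to 23.6 FPKM in silibinin and 19.1 to 75.9 FPKM in phloridzin livers. Of the 3 tested neutrophil markers, 1 was called as higher in model against control, and limma called 0 with either drug against model, with 1 for silibinin and 0 for phloridzin at an unadjusted p under 0.05. Sums of sinusoidal endothelium, led by Clec4g, were 52.6 to 64 FPKM in control, 56.6 to 72.7 FPKM in model, 28.5 to 72.4 FPKM in silibinin and 55.5 to 79.1 FPKM in phloridzin livers. For model against control, limma called 0 of 5 of these markers, with 1 at an unadjusted p under 0.05, and 0 of 2 tested T cell markers, with 0. T cell markers summed to 0.907 to 1.4 FPKM in control and 2.46 to 5.25 FPKM in model livers, and B cell markers, of which 1 of 3 tested was called as higher and limma called 0 after scaling (2 at an unadjusted p under 0.05 as deposited), to 0.866 to 2.14 FPKM and 3.42 to 4.33 FPKM. With the drugs these sums were 1.5 to 4.11 FPKM and 2.72 to 5.67 FPKM. The part of these cells in the changes of Cebpa, Cebpb and Nr1i3 was not tested.

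Other transcription factors enriched in liver give the context of the 9 genes. Of 35, 9 were called higher and 1 lower in model against control (28.6% against 34.9% of all symbols), with a median of 0.47 against 0.34 for all symbols, and after median-ratio scaling 2 were higher and 3 lower. Id1 rose by 2.42 (standard error 0.65, higher in 3 of 3 livers, limma, Benjamini-Hochberg adjusted p = 0.016), a call that was lost without model liver 3 alone among the livers. Creb3l3 fell by 0.66 (standard error 0.11, lower in 3 of 3 livers, limma, Benjamini-Hochberg adjusted p = 0.0013). Mlxipl (1.42) and Srebf1 (1.08) were also called as higher, and lost the call after scaling and when 1 liver was left out in 5 and 3 of 12 cases.

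The count of called factors in this list fell from 10 to 4 without control liver 2, 6 without control liver 3, 5 without model liver 2 and 3 without model liver 3. Against model, 1 of the 35 was higher and 1 lower with each drug (5.71%, against 14.1% of all symbols for silibinin and 12.9% for phloridzin). For silibinin these 2 became 4 without model liver 1 and 1 without model liver 2, silibinin liver 1 or silibinin liver 3. For phloridzin limma called 0 (of 8 at an unadjusted p under 0.05 in the full fit) without model liver 2 or silibinin liver 1, and 1 without model liver 1 or 3, silibinin liver 2 or phloridzin liver 2 or 3. Creb3l3 was higher by 0.45 with silibinin and 0.40 with phloridzin, Cebpd lower by -1.29 with silibinin (standard error 0.25, lower in 3 of 3 livers, limma, Benjamini-Hochberg adjusted p = 0.0075), and Srebf1 lower by -1.18 with phloridzin. Only the call of Cebpd held in all 24 alternatives; those of Creb3l3 were lost in 4 of 12 cases with 1 liver left out for silibinin and in 8 for phloridzin, as was that of Srebf1 in 8 and after scaling. After scaling 2 factors were higher and 1 lower with silibinin, and 1 and 0 (limma, 8 at an unadjusted p under 0.05 as deposited) with phloridzin.

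Some partners of HNF4A and FOXA2 were described whatever their change. Foxa3 went from a mean of 22.5 FPKM in control to 35.7 FPKM in model livers, a rise of 0.64 (standard error 0.20, higher in 3 of 3 livers, limma, Benjamini-Hochberg adjusted p = 0.028) that was 0.18 and not called after scaling, and was lost without control liver 2 or 3 or model liver 2 or 3. Foxa1 (0.39), Nr0b2 (-0.84) and Nr1i2 (0.36) were not called in any alternative of this comparison. Foxa1 ran from -0.11 to 0.77 over the 24 alternatives, so its sign turned, and Nr1i2 had a value of -0.07 after scaling. Nr5a2, with -0.14, was called as lower in 1 of 24. Hnf4g, the paralog of Hnf4a, had group means of 0.0462 to 0.0828 FPKM and was under the filter.

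Of 36 other nuclear receptors, 30 passed the filter. In model against control 4 were higher and 2 lower (20% against 34.9% of all symbols), with a median of 0.03 against 0.34 for all symbols, and after scaling 3 were higher and 7 lower. Rxra, the partner of PPARA, FXR and CAR, went from 107 to 71.4 FPKM and fell by 0.58 (standard error 0.13, lower in 3 of 3 livers, limma, Benjamini-Hochberg adjusted p = 0.0065), a call lost in 1 of 24 alternatives, the one with a fold change above 2. Rarb (1.16), Rarg (0.99) and Nr4a1 (1.64) were called as higher and Rxrg (-0.75) as lower, each also in all 12 fits with 1 liver left out.

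Against model, 1 of the 30 was higher and 1 lower with each drug (6.67%, against 14.1% of all symbols for silibinin and 12.9% for phloridzin). After scaling 3 were higher and 1 lower with silibinin, and 2 were higher and 0 lower with phloridzin (limma, 7 at an unadjusted p under 0.05 as deposited). Nr4a1 was lower with both drugs, by -1.13 with silibinin and -0.93 with phloridzin. The call for phloridzin was lost in 11 of 24 alternatives, median-ratio scaling and 4 of 12 cases with 1 liver left out among them, and that for silibinin in 1 of 24, none of the 12. Rxra was higher by 0.44 with silibinin, a call lost in 10 of 12 such cases, and Thra higher by 0.65 with phloridzin, lost in 4 of 12. The count for silibinin fell from 2 to 1 without control liver 3, model liver 2 or 3, silibinin liver 1 or 2 or phloridzin liver 2. That for phloridzin fell from 2 to 1 without model liver 3 or phloridzin liver 2 or 3, and limma called 0 (of 7 at an unadjusted p under 0.05 in the full fit) without model liver 2.

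Target genes were read as lists written from knowledge of each factor. The lists do not separate targets that a factor raises from those it lowers, so their direction is no measure of its activity. Some genes are shared between lists, among them Cyp8b1, Cyp7a1 and Slc10a1 between those of HNF4A and FXR. Of 32 targets of HNF4A, 6 were called in model against control, all lower (18.8%, against 34.9% of all symbols called and 3.8% called lower), with a median of -0.30 against 0.34 for all symbols, and after scaling 15 were lower, as were 1658 of all 13158 symbols. Cyp8b1, an enzyme of bile acid synthesis that is also in the list for FXR, went from 264 to 33.5 FPKM and fell by 3.01 (standard error 0.33, lower in 3 of 3 livers, limma, Benjamini-Hochberg adjusted p = 0.00018). F7 (-0.89) was also called as lower and kept the call whichever liver was left out. Against model, 4 of the 32 were called with silibinin (12.5% against 14.1% of all symbols called and 2.62% called higher) and 3 with phloridzin (9.38% against 12.9% and 2.5%), all higher, with medians of 0.44 and 0.45. After scaling 7 were higher with each drug, as were 731 of all 13158 symbols with silibinin and 614 with phloridzin.

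Cyp8b1 rose to 153 FPKM with silibinin and 160 FPKM with phloridzin, by 2.23 and 2.32 on the log2 scale (standard error 0.33 each, higher in 3 of 3 livers each, limma, Benjamini-Hochberg adjusted p = 0.0017 and 0.0015), and its calls held in all 24 alternatives of all 3 comparisons. Abat (1.02) and Otc (0.79) with silibinin, and Cyp7a1 (2.60) and F10 (0.80) with phloridzin, lost the call with 1 liver left out in 4, 4, 3 and 8 of 12 cases. The count for silibinin fell from 4 to 1 without model liver 1, model liver 2, silibinin liver 1 or silibinin liver 2 and rose to 7 without phloridzin liver 1, and that for phloridzin rose from 3 to 9 without phloridzin liver 1 and fell to 1 without model liver 2, phloridzin liver 2 or phloridzin liver 3. Hnf4a itself was between 88.7 and 126 FPKM in all these livers as deposited. After scaling, its change in model against control was -0.44 and not called (limma, Benjamini-Hochberg adjusted p = 0.085). Against model its scaled change was 0.32 with silibinin and 0.06 with phloridzin, also not called.

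Of 27 targets of C/EBP proteins, 3 were called in model against control, all lower (11.1%, against 34.9% of all symbols called and 3.8% called lower), with a median of -0.60, and after scaling 5 were lower. Tdo2 went from 390 to 150 FPKM and fell by 1.48 (standard error 0.28, lower in 3 of 3 livers, limma, Benjamini-Hochberg adjusted p = 0.0027). It rose again by 1.53 with silibinin and 1.82 with phloridzin, the only call of the list in those comparisons (3.7%, against 14.1% and 12.9% of all symbols), and all 3 calls of Tdo2 held in all 24 alternatives. Hp (-1.30) and Saa4 (-1.29) lost the call in model against control with 1 liver left out in 7 and 3 of 12 cases. Its count of 3 became 1 without control liver 3 or model liver 3 and 5 without control liver 2 or phloridzin liver 1. Without phloridzin liver 1 the count of 1 rose to 3 for silibinin and 4 for phloridzin, and for phloridzin to 2 without silibinin liver 1 or 3. The medians of the list were 0.19 against model with silibinin and 0.14 with phloridzin, and after scaling 1 and 2 were called, all higher.

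Of 43 targets of PPARA, 42 passed the filter and 5 were called higher and 9 lower in model against control (33.3% against 34.9% of all symbols), with a median of -0.37, and after scaling 4 and 20. Fgf21, a hormone that the liver releases, was the most raised, from 0.534 to 15.4 FPKM, a change of 3.28 in log2(FPKM + 1) (standard error 0.55, higher in 3 of 3 livers, limma, Benjamini-Hochberg adjusted p = 0.0016). Acot2 (2.07) and Pdk4 (1.66) were higher, and Cyp4a32 (-1.81), Angptl4 (-1.32) and Plin5 (-1.21) lower, and these 6 calls held in all 24 alternatives. The called targets of PPARA thus lay in both directions, and Ppara itself was not called.

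Against model, 11 PPARA targets were higher and 2 lower with silibinin, with a median of 0.51, and 3 were higher and 3 lower with phloridzin, with a median of 0.33. These are 31% of the list with silibinin, against 14.1% of all symbols, and 14.3% with phloridzin, against 12.9%. After scaling these counts were 17 and 2 with silibinin, against 731 and 833 of all 13158 symbols, and 7 and 2 with phloridzin, against 614 and 814. The difference between the drugs was tested gene by gene, and 0 of 42 were called in phloridzin against silibinin by limma, with 4 at an unadjusted p under 0.05. Fgf21 fell by 3.15 with silibinin and 3.03 with phloridzin, and Cidec by 1.67 and 1.5, and leaving out 1 liver took away 0 of these 4 calls. With silibinin, Cpt1a (1.80), Cyp4a10 (1.64) and Cyp4a32 (1.49) were called as higher and lost the call with 1 liver left out in 4, 5 and 6 of 12 cases. With phloridzin, Plin5 (1.08), Cpt2 (0.53) and Acot2 (-1.45) lost it in 3, 11 and 10 cases, and Decr2 (0.70) in 0, and the call of Acot2 was also lost after scaling. The count for silibinin fell from 13 to 5 without model liver 1, 6 without model liver 2, 7 without silibinin liver 1 and 6 without silibinin liver 2 or 3, and that for phloridzin from 6 to 3 without model liver 1.

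Of 28 targets of FXR, 26 passed the filter and 3 were called in model against control, all lower (11.5%, against 34.9% of all symbols called and 3.8% called lower), with a median of -0.36 and with 6 lower after scaling. Besides Cyp8b1 these were Slco1b2 (-0.69) and Slc10a1 (-0.68), of which Slc10a1, the main bile acid importer, lost the call in 4 of 12 cases with 1 liver left out. It also lost the call with the highest transcript in place of the sum, and ran from -1.15 to -0.17 over the 24 alternatives. With silibinin 3 were higher and 1 lower than in the model group (15.4% against 14.1% of all symbols), with a median of 0.08, and with phloridzin 2 were higher (7.69% against 12.9%), with a median of -0.07. Slc10a1 (0.72), Ces1d (1.35) and Cyp2c70 (-0.89) were called with silibinin and lost the call in 4, 8 and 7 of 12 cases, Cyp2c70 also after scaling. Each of them also lost it with the highest transcript in place of the sum, and Slc10a1 ran from 0.13 to 0.94 over the alternatives. After scaling 4 were higher and 0 lower with silibinin and 3 and 0 with phloridzin (limma, 6 at an unadjusted p under 0.05 as deposited with each). The count in model against control rose from 3 to 5 without model liver 3. For silibinin it fell from 4 to 1 without model liver 1 or 2 or silibinin liver 1 or 2 and to 2 without silibinin liver 3, and for phloridzin from 2 to 1 without model liver 2 or phloridzin liver 2.

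Of 42 targets of CAR and PXR, 37 passed the filter, and 7 were called higher and 5 lower in model against control (32.4% against 34.9% of all symbols), with a median of 0.36 and with 6 and 8 after scaling. Cyp2b10, the classic target of CAR, went from 1.95 to 21.8 FPKM and rose by 2.87 (standard error 0.55, higher in 3 of 3 livers, limma, Benjamini-Hochberg adjusted p = 0.0032). Gsta1 (4.10) and Cyp2a4 (3.38) were higher too, and Cyp2c37 (-3.48), Cyp2c54 (-1.82) and Cyp2c50 (-1.33) lower. Cyp2c37 went from 172 to 15.7 FPKM. These 6 calls held in all 24 alternatives except for Gsta1, which lost it in 2.

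Against model, 1 target of CAR and PXR was higher and 3 were lower with each drug (10.8%, against 14.1% of all symbols for silibinin and 12.9% for phloridzin), with medians of 0.21 and 0.38. Abcc4, an exporter of bile acids and drugs, went from 12.1 FPKM in model to 1.93 FPKM with silibinin and 3.87 FPKM with phloridzin, by -2.17 and -1.52 (standard error 0.27 each, lower in 3 of 3 livers each, limma, Benjamini-Hochberg adjusted p = 7e-04 and 0.0054), next to 1.16 FPKM in control. Its call held in all 24 alternatives for silibinin. For phloridzin it was lost only in a fit of these 2 groups alone (limma, Benjamini-Hochberg adjusted p = 0.052). Gadd45b was lower by -0.92 and -0.97, and lost the call in 2 and 1 of 12 cases with 1 liver left out. Cyp2a4 was lower by -1.89 and -2.08 and lost it in 16 and 7 of all 24 alternatives, 8 and 4 of them with 1 liver left out and, for silibinin, also after scaling. With 1 liver left out, Cyp2c39 (0.50, silibinin) and Abcc3 (0.92, phloridzin) lost it in 4 cases each. After scaling 1 was higher and 2 lower with silibinin, and 2 and 3 with phloridzin. The count for silibinin went from 4 to 2 without model liver 1 or 2 or silibinin liver 1 or 2 and to 7 without phloridzin liver 1, and that for phloridzin from 4 to 2 without model liver 1 and 1 without phloridzin liver 2. Against control, 7 targets were higher and 2 lower with phloridzin (24.3% against 7.99% of all symbols), and 2 and 4 after scaling. With silibinin 1 was higher and 1 lower than in control (5.41% against 5.02%), and 1 and 3 after scaling. These counts against control were not computed with 1 liver left out.

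**Figure D5:**
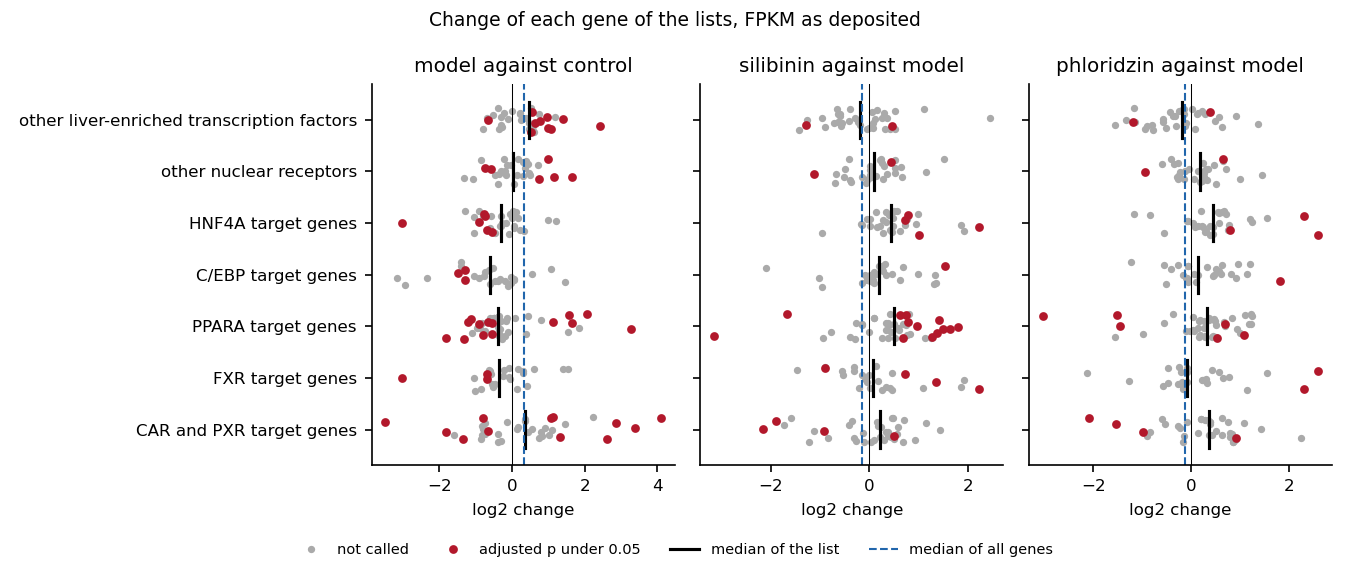
Change in log2 level as deposited (horizontal axis) of each tested gene of the 7 lists in 3 comparisons, with called genes in red, the median of each list as a black bar and the median of all symbols as a dashed line. In model against control the medians of the HNF4A, C/EBP, PPARA and FXR targets lie between -0.60 and -0.30, below the 0.34 of all symbols.

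The promoter windows of the 9 genes were also read for motifs on both strands. RefSeq gave 13 windows for the 9 genes, all of which matched by symbol. The GC box was found in 8 of 13, the TATA box, the CCAAT box, the core of the cAMP response element and the forkhead motif in 3 each, the nuclear receptor motif in 1 and the C/EBP motif in 0. The shares of all 32851 windows were 32.7% for GGGCGG (GC box), 12.4% for TATAAA, 33.8% for CCAAT, 17.8% for TGACG (cAMP response), 17.8% for TGTTTNC (forkhead), 14.0% for AGGTCA (nuclear receptors) and 9.6% for TTGCNNAA (C/EBP). A match is a run of letters and not a binding site, and no binding was measured here.

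Some of these genes lie across genes on the opposite strand. The window before Cebpa lies inside an intron of Gm45091, and the one before Cebpb inside an intron of a transcript of Tmem189. Tmem189 shares 312 of the 1504 exonic bases of Cebpb and had means of 8.91, 11.5, 6.46 and 6.01 FPKM in the control, model, silibinin and phloridzin groups, next to 70.5, 125, 55.1 and 55.1 FPKM for Cebpb. Hnf4aos, antisense to Hnf4a, had means of 1.36, 0.41, 0.194 and 0.963 FPKM. Whether fragments of these genes were counted for their neighbours was not tested.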

How the data were processed

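The values are the FPKM of transcripts that the authors deposited, 169430 of them, of which 82136 carry a symbol. By the submitters' processing notes, reads were called with bcl2fastq, checked with FastQC 0.11.5, aligned to mm10 with HISAT2 2.1.0 and assembled and quantified with StringTie 1.3.3b, and DESeq 1.28.0 was used for differences. Here FPKM was summed per symbol and log2(FPKM + 1) was fitted for all 12 livers together with limma 3.58.1 (trend of the prior variance) in R 4.3.3 (with the package data.table, version 1.17.8), with Benjamini-Hochberg adjustment within each of 6 comparisons. Other steps used Python 3.11.15, numpy 2.4.6, pandas 2.3.3 and matplotlib 3.10.9, with transcript types from GENCODE M21 and promoters from RefSeq. The fit was tested on simulated data.

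The deposited table holds no counts. Depth was read from the smallest steps between FPKM values of transcripts of at least 1500 bases, with a tolerance of 0.1 of a step, and fragments recovered in this way were used for voom. Of the 81968 transcripts with a symbol that could be compared, 98.1% had the same position as in GENCODE M21.

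The 9 genes and the lists were chosen with earlier results of these data known. Named genes are up to 3 called higher and 3 called lower in each list and comparison, with a mean of at least 1 FPKM, besides, among others, Foxa1, Foxa3, Nr0b2, Nr1i2, Nr5a2, Rxra and Hnf4g, the 3 nearest profiles of each of the 9 genes called in model against control, and transcripts of the 9 genes with a mean of at least 0.5 FPKM. Tf was matched as Trf. Slc51a, Prss2, Pnlip, Kap and Slc12a1 had no match and were not analysed here.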

Additional observations from a re-analysis of the deposited data

How the results depend on the processing

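The changes and calls of single genes and the counts of called genes were computed under 24 alternatives, of which up to 20 give a value for transcripts. Sums of markers, ratios and nearest profiles were not computed under them. Of the 24, 2 were chosen after seeing the data (protein-coding transcripts only, and voom with median-ratio scaling). Of the 54 changes of the 9 genes (9 genes in 6 comparisons), 47 had the same call under all 24, and none that was called changed sign. Where a cause is not named below, the cause was not tested.

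In model against control, 2 of the 9 genes were called, 1 in a fit of only the 2 groups and 0 with a fold change above 2 (limma; 3 at an unadjusted p under 0.05 without that requirement). In silibinin against model, 2 were called, and 1 under each of these alternatives. In phloridzin against model, 1 was called, and 2 with a filter at 1 FPKM, with median-ratio scaling and with voom and median-ratio scaling, and 0 in a fit of only the 2 groups (limma; 2 at an unadjusted p under 0.05 in the fit of all livers). Leaving out 1 liver gave 1 (without control liver 3 or model liver 2) to 3 (without silibinin liver 2), 1 (without model liver 2, silibinin liver 1 or silibinin liver 2) to 2, and 1 to 2 (without model liver 3). In the other 3 comparisons, limma called 0 of the 9 under all 24, voom among them, and leaving out 1 liver gave 0 to 0, with 1, 0 and 0 at an unadjusted p under 0.05 for silibinin against control, phloridzin against control and phloridzin against silibinin.

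Among all symbols, a fold change above 2 left 1382 of 4594 calls in model against control, 526 of 1849 in silibinin against model, 463 of 1691 in phloridzin against model, 261 of 661 in silibinin against control and 398 of 1051 in phloridzin against control, which follows from the added requirement. With the highest transcript of each symbol in place of the sum, the counts were 2657, 1082, 922, 179 and 313, and 5 against 3 in phloridzin against silibinin. A fit of only the 2 groups, which has fewer livers to estimate the spread, gave 604 in phloridzin against model, 207 in phloridzin against control and 0 in phloridzin against silibinin (limma; 494 at an unadjusted p under 0.05 in the fit of all livers). A pseudocount of 0.1 gave 1092 in silibinin against control.

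Leaving out 1 liver gave 3508 (without control liver 2) to 5220 (without phloridzin liver 1) symbols in model against control, 1114 (without model liver 2) to 2255 (without phloridzin liver 1) in silibinin against model and 865 (without phloridzin liver 2) to 2077 (without phloridzin liver 1) in phloridzin against model. For the comparisons with control the ranges were 134 (without silibinin liver 1) to 1264 (without phloridzin liver 1) for silibinin and 367 (without control liver 1) to 1281 (without phloridzin liver 3) for phloridzin, and phloridzin against silibinin had 1 (without silibinin liver 2) to 6 (without phloridzin liver 1).

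Of the transcripts of the 9 genes, 3 were called in model against control, and 1 without a filter on low values, in a fit of only the 2 groups and with a fold change above 2. In silibinin against model 1 was called, and 2 with a filter at 1 FPKM. In a fit of only the 2 groups limma called 0 in silibinin against model and 0 in phloridzin against model, where 1 was called in the fit of all livers. Leaving out 1 liver gave 1 (without control liver 1, 2 or 3 or model liver 1) to 4 (without model liver 3), 0 (without silibinin liver 1, 2 or 3) to 2 (without model liver 3) and 0 (without model liver 2 or phloridzin liver 2 or 3) to 2 (without silibinin liver 3).

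The numbers of the livers share only a name across groups. After the group means were removed, livers with the same number had a median correlation of 0 across genes and those with different numbers -0.01. With the number as a block, 2, 2, 1, 0, 0 and 0 of the 9 genes were called by limma in the 6 comparisons and 4351, 1664, 1455, 506, 819 and 3 symbols. Of the transcripts, 1 was called in model against control, and limma called 0 in silibinin against model and 0 in phloridzin against model under this pairing.

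With 3 livers in each group, intervals of the genes with the lowest levels and of Ppara span more than a 2-fold change. The sources give no batch, no cell counts and no strand of the libraries, so fragments of overlapping genes could not be separated, and the share of each cell type could not be told apart from its level of RNA.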
